A study of Mus musculus with 4 samples.

Results

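The 34 genes described here encode the granule proteins, the NADPH oxidase subunits and the surface receptors by which neutrophils are usually recognised, together with a few abundant neutrophil products of the cytosol. They were chosen by gene symbol, with earlier results of these data known, so counts on them are descriptions. All 34 had an entry among the 23275 of the deposited table, and all 34 were tested by the authors, out of 12683 entries tested.

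Neutrophils build their granules in sequence as they mature in the marrow. Primary or azurophil granules form at the promyelocyte stage and hold myeloperoxidase and serine proteases. Secondary or specific granules, with lactoferrin and other antimicrobial proteins, follow at the myelocyte stage, and tertiary or gelatinase granules come later still. The NADPH oxidase makes superoxide from a membrane flavocytochrome and subunits recruited from the cytosol, and it is used by other leukocytes, B cells and macrophages among them.

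The RNA came from marrow of C57BL/6 mice at 8 weeks of age, sorted for B220+CD43+ cells, a gate meant for early B-lineage cells and not for neutrophils, and was sequenced after polyA selection. The Hdac3 KO group comprised 2 libraries from mice with the genotype Hdac3F/-Mb1cre+/-, which carry a conditional and a null allele of the histone deacetylase gene. The WT group comprised 2 libraries from Hdac3+/+Mb1cre+/- mice, so both groups carried the recombinase. Mb1-cre is expressed from the Cd79a locus in B-lineage cells, whereas the null allele is present in every cell of the Hdac3 KO mice. Each library pooled cells of 2 mice. Hdac3 itself was 22.0 FPKM in Hdac3 KO cells against 46.8 FPKM in WT cells.

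Levels are given as the authors deposited them, in FPKM, a fragment count scaled to transcript length and library size, with 1 value per genotype that combines its 2 libraries. No value per library was used, the depth is unknown, and no spread between libraries can be given. As the measure of error, each log2 fold change (Hdac3 KO over WT) is followed by the standard error implied by the authors' test statistic, which is the fold change divided by that statistic. A gene was called lower or higher where the q-value in the authors' deposited table was under 0.05.

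Of the 34 genes, 24 were lower in Hdac3 KO cells, 0 were higher and 10 were not called. At an unadjusted Cuffdiff p under 0.05, 0 were higher, and the same count of 0 came from reading the deposited statistic as a normal deviate. Over all tested entries 6.95% were called in the authors' deposited table, 4.14% lower and 2.81% higher. The median log2 fold change of the 34 was -1.55, against 0.03 over all tested entries. Of the called genes, 22 were at least 2-fold lower, which held for 2.33% of all tested entries. Summed over the 34, the level was 3470 FPKM in Hdac3 KO cells against 11917 FPKM in WT cells, or 0.610% and 2.04% of all FPKM. In bulk RNA a smaller number of cells of a type and less RNA per cell cannot be told apart.

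The classes did not share a common ratio. In summed levels, lysozyme genes were 4.21-fold, calprotectin genes 4.07-fold and secondary granule genes 3.97-fold lower in Hdac3 KO cells, while the oxidase subunits summed to 419 FPKM in Hdac3 KO cells and 412 FPKM in WT cells. The summed primary granule level was 2.01-fold lower, with 1 of its 4 genes called and with Elane and Prtn3, whose implied errors exceed their fold changes, in the sum. The differences between classes were not tested, since the table gives 1 value per genotype.

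**Figure D1:**
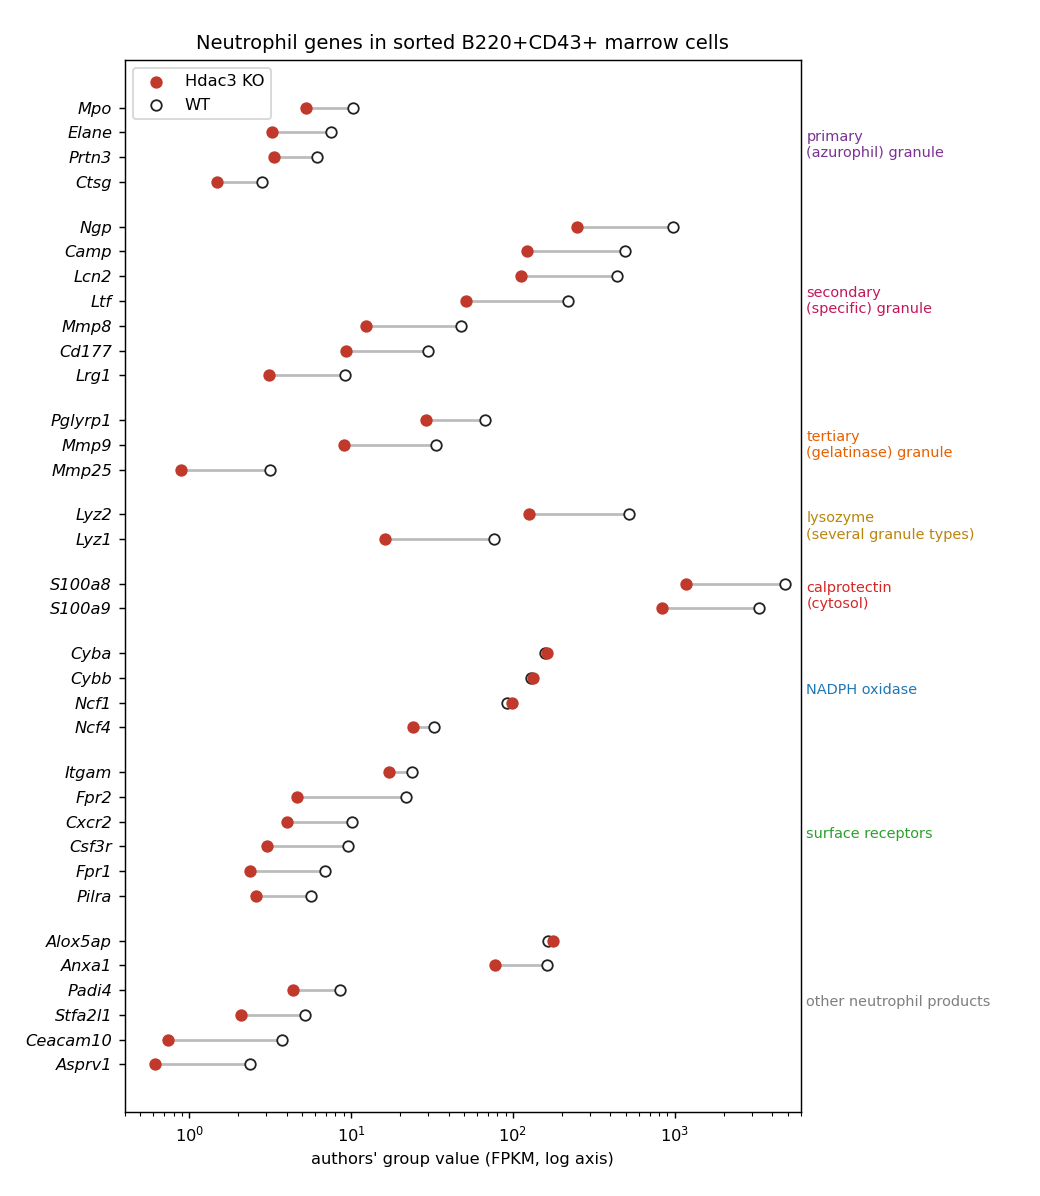
Level of each of the 34 genes in FPKM on a log axis, grouped by class, with Hdac3 KO as filled points and WT as open points joined by a grey line for each gene. The points lie far apart for S100a8, at 1172 and 4815 FPKM, and nearly coincide for Cybb, at 133 and 129 FPKM.

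The primary granule genes were at low levels in both genotypes. Mpo, which encodes the myeloperoxidase that makes hypochlorous acid, was 5.26 FPKM in Hdac3 KO cells against 10.3 FPKM in WT cells. Its log2 fold change was -0.98 ± 0.32 and it was the 1 called gene of the 4 (q = 0.0016 in the authors' deposited table). Ctsg, the serine protease cathepsin G, was 1.49 FPKM in Hdac3 KO cells against 2.81 FPKM in WT cells. Its log2 fold change of -0.91 ± 0.47 did not pass, with q = 0.189 in the authors' deposited table. The other two are also serine proteases stored with myeloperoxidase. Elane, neutrophil elastase, was 3.24 FPKM in Hdac3 KO cells against 7.50 FPKM in WT cells, and Prtn3, proteinase 3, was 3.35 FPKM in Hdac3 KO cells against 6.13 FPKM in WT cells. The log2 fold changes of the 4 lay between -1.21 and -0.87, and the median of the class was -0.95. The summed level of the class was 13.3 FPKM in Hdac3 KO cells and 26.8 FPKM in WT cells, a 2.01-fold difference. The call on Mpo was lost when the deposited statistic was read as a normal deviate, with an adjusted p of 0.0561. Exons of Mpo overlap Gm11505 on the other strand, and without strand the reads of such a pair cannot be told apart.

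The missing calls on Elane and Prtn3 went with errors of another order. Both were assigned by the authors to a locus of 672 kb on chromosome 10 (79697305 to 80369637, mm10) that holds 46 entries. Their implied standard errors were 21.5 and 19.3 log2 units, whereas those of the other 32 members lay between 0.12 and 0.54. Their deposited p-values, 0.317 and 0.339, are far smaller than test statistics of -0.0562 and -0.0450 would give as normal deviates, so for these genes the implied error does not describe the authors' p-value. The 34 further tested entries of that locus had implied standard errors from 1.47 to 60.0, with a median of 4.62, and none of them was called. The median over all tested entries was 0.30, and 88 of 12643 exceeded 5. The fold changes of Elane and Prtn3 are therefore given as values, and q-values of 0.716 and 0.734 in the authors' deposited table do not show that these genes kept their level. Prss57, a related serine protease gene of the same locus singled out after its values were seen, was 7.98 FPKM in Hdac3 KO cells and 6.37 FPKM in WT cells.

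All 7 secondary granule genes were lower in Hdac3 KO cells, each with q = 0.0016 in the authors' deposited table. Ngp, a cystatin-related granule protein described in the mouse, was the most abundant, at 247 FPKM in Hdac3 KO cells against 968 FPKM in WT cells. Camp, the precursor of the antimicrobial peptide cathelicidin, was 122 FPKM in Hdac3 KO cells against 495 FPKM in WT cells. Lcn2, which binds bacterial siderophores, was 112 FPKM in Hdac3 KO cells against 442 FPKM in WT cells. These abundant members fell by almost the same factor, and the ratio of Ngp to Lcn2 was 2.20 in Hdac3 KO cells and 2.19 in WT cells. Ltf, the iron-binding lactoferrin, was 50.9 FPKM in Hdac3 KO cells against 218 FPKM in WT cells. Mmp8, neutrophil collagenase, was 12.3 FPKM in Hdac3 KO cells against 47.9 FPKM in WT cells. On the log2 scale Ltf was at -2.10 ± 0.30, Camp at -2.03 ± 0.22, Lcn2 at -1.98 ± 0.25, Ngp at -1.97 ± 0.33 and Mmp8 at -1.96 ± 0.24. These 5 differed from each other by less than their implied standard errors. Cd177, a surface protein also found in specific granule membranes of human neutrophils, was 9.33 FPKM in Hdac3 KO cells against 29.7 FPKM in WT cells (-1.67 ± 0.28). Lrg1, a leucine-rich glycoprotein of neutrophil granules in humans, was 3.10 FPKM in Hdac3 KO cells against 9.14 FPKM in WT cells (-1.56 ± 0.35). The median of the class was -1.97, and the summed level was 557 FPKM in Hdac3 KO cells against 2210 FPKM in WT cells, 3.97-fold lower.

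The primary and secondary classes stood in different proportions in the 2 genotypes. Summed primary granule FPKM were 0.0239 of summed secondary granule FPKM in Hdac3 KO cells and 0.0121 in WT cells. For the defining genes, Ltf exceeded Mpo 9.69-fold in Hdac3 KO cells and 21.1-fold in WT cells. These ratios carry the error of both genes and were not tested.

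The 3 tertiary granule genes were all lower in Hdac3 KO cells (q = 0.0016 for each in the authors' deposited table). Mmp9, gelatinase B, was 8.98 FPKM in Hdac3 KO cells against 33.7 FPKM in WT cells, a log2 fold change of -1.91 ± 0.30. It kept its proportion to the collagenase Mmp8, which was 1.37 times as abundant as Mmp9 in Hdac3 KO cells and 1.42 times in WT cells. Mmp25, a metalloproteinase anchored to the membrane, was 0.889 FPKM in Hdac3 KO cells against 3.16 FPKM in WT cells (-1.83 ± 0.42). Pglyrp1, which binds bacterial peptidoglycan and lies in tertiary granules of human neutrophils, was 29.1 FPKM in Hdac3 KO cells against 67.2 FPKM in WT cells (-1.21 ± 0.24). Because Pglyrp1 is the most abundant of the 3, the log2 ratio of the summed levels was -1.42 with it and -1.90 without it.

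Calprotectin and lysozyme, which are not confined to 1 granule type, fell by the same order as the secondary granule genes. S100a8 and S100a9 encode the subunits of calprotectin, a calcium- and zinc-binding complex that is among the most abundant proteins of the neutrophil cytosol. S100a8, on chromosome 3, was 1172 FPKM in Hdac3 KO cells against 4815 FPKM in WT cells (-2.04 ± 0.12). It ranked 71 by level among all 23275 entries in Hdac3 KO cells and 1 in WT cells. S100a9 was 831 FPKM in Hdac3 KO cells against 3333 FPKM in WT cells (-2.00 ± 0.21). The ratio of S100a8 to S100a9 was 1.41 in Hdac3 KO cells and 1.44 in WT cells, so both subunits fell in step. Together they made up 0.352% of all FPKM in Hdac3 KO cells and 1.39% in WT cells, more than the other 32 genes combined in either genotype. Lyz2, the lysozyme of myeloid cells, was 125 FPKM in Hdac3 KO cells against 518 FPKM in WT cells, and Lyz1, the adjacent gene known from Paneth cells of the gut, was 16.1 FPKM in Hdac3 KO cells against 76.2 FPKM in WT cells. Their log2 fold changes were -2.05 ± 0.24 and -2.24 ± 0.24. Of the 50-base stretches in Lyz1 transcripts, 16.1% also occurred in Lyz2 transcripts, so reads may have been split between them. All 4 genes had q = 0.0016 in the authors' deposited table.

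The promoters of the members were searched for short motifs. RefSeq sequences of the GRCm38.p6 assembly, from 250 bases before to 50 bases after the start of the gene, were at hand for 31 of the 34 genes. They were searched on both strands for TTNNGNAA, a core of the sites bound by C/EBP factors, and for GAGGAAG, a core of the sites bound by the ETS factor PU.1. Both kinds of factor act in granulocyte development. The C/EBP core occurred in 40.7% of all 32851 promoters and the PU.1 core in 13.6%. The C/EBP core was found in 5 of 7 secondary granule promoters, in all 4 of the lysozyme and calprotectin genes, in 4 of 6 receptor promoters, and in 0 of 4 primary and 0 of 2 tertiary granule promoters. The PU.1 core was found in 4 of 4 primary, 2 of 2 tertiary and 2 of 7 secondary granule promoters and in 3 of 6 receptor promoters. Among the other neutrophil products, 2 of 5 promoters held the C/EBP core and 0 of 5 the PU.1 core. Among called members, 13 of 23 promoters held the C/EBP core and 8 of 23 the PU.1 core. Among members not called, 2 of 8 held the C/EBP core and 4 of 8 the PU.1 core. Mmp25, with a PU.1 core and no C/EBP core, was at -1.83, at 0.889 FPKM in Hdac3 KO cells. Whether the matches go with the fold changes was not tested. Over all 31 promoters, 15 (48.4%) held the C/EBP core and 12 (38.7%) the PU.1 core. None of the 3 oxidase promoters at hand, those of Cyba, Cybb and Ncf1, held either core. A match is a string of letters and not a bound site, the sets are small, and no test was made. The motifs overlapped each other in 1 promoter, that of Itgam.

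The sequences of 7 promoters are shown 5′ to 3′ on the strand of the gene, in lower case with the matches in capitals, to set primary granule genes beside secondary granule and oxidase genes. They are Mpo (chr11:87793534-87793833, plus strand), Elane (chr10:79886062-79886361, plus strand), Ltf (chr9:111019042-111019341, plus strand), Ngp (chr9:110419558-110419857, plus strand), Camp (chr9:109849407-109849706, minus strand), Cybb (chrX:9469275-9469574, minus strand) and Ncf1 (chr5:134229576-134229875, minus strand).
Mpo: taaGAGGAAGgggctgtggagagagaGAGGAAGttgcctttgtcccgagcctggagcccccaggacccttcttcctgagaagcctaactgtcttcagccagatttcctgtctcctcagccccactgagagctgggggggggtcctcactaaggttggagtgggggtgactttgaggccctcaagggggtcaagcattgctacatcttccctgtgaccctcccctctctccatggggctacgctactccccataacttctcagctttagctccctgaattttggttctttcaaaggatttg
Elane: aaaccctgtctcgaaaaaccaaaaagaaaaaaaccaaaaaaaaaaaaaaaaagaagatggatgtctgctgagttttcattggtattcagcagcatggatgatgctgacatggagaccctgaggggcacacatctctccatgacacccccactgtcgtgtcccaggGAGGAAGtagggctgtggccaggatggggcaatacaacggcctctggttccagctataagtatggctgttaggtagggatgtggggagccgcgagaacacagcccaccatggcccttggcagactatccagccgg
Ltf: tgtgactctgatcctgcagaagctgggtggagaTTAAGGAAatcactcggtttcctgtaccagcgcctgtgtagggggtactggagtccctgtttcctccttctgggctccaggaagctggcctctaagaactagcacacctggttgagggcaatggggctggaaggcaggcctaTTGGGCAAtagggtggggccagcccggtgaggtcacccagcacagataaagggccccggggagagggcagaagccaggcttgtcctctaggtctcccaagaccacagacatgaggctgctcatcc
Ngp: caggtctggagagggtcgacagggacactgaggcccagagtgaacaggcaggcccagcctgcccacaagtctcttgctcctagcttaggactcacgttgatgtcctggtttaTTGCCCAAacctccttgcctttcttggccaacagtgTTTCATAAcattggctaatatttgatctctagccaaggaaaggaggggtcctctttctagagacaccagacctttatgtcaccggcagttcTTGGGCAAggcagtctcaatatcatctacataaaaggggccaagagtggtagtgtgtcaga
Camp: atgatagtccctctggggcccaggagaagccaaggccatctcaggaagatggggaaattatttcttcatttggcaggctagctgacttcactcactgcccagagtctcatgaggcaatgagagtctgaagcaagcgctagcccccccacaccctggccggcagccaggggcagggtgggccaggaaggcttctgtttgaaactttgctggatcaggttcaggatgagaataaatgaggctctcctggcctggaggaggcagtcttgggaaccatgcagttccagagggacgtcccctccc
Cybb: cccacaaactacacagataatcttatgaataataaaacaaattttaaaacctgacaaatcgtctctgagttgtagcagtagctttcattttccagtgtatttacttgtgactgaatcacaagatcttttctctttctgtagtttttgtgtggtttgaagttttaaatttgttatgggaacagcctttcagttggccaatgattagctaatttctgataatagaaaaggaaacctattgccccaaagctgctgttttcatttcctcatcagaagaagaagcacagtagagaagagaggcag
Ncf1: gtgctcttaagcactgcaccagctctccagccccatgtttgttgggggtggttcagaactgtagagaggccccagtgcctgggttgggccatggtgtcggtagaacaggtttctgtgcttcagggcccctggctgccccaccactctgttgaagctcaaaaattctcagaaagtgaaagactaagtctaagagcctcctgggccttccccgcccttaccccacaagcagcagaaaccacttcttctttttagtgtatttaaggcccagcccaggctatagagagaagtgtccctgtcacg
In Mpo the capitals mark PU.1 cores that begin 247 and 224 bases before the start, and in Elane a PU.1 core 85 bases before it. In Ltf they mark C/EBP cores 217 and 75 bases before the start, and in Ngp C/EBP cores 138, 102 and 11 bases before it. Camp, with a log2 fold change of -2.03, held neither string in this window, nor did the promoter of Lrg1, which is not shown. Ngp, which held the most C/EBP cores of the secondary granule promoters, was added to those planned for display.

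Of the 6 surface receptor genes, 5 were lower in Hdac3 KO cells. Fpr2 and Fpr1 encode receptors for formylated bacterial peptides and lie side by side on chromosome 17. Fpr2 was 4.65 FPKM in Hdac3 KO cells against 21.8 FPKM in WT cells (-2.23 ± 0.22), and Fpr1 was 2.37 FPKM in Hdac3 KO cells against 6.87 FPKM in WT cells (-1.53 ± 0.32). Of the 50-base stretches of Fpr2, 31.5% also occur in transcripts of other genes, so its value is less certain. Csf3r, the receptor for granulocyte colony-stimulating factor, was 3.02 FPKM in Hdac3 KO cells against 9.56 FPKM in WT cells (-1.66 ± 0.31). Cxcr2, the chemokine receptor that draws neutrophils out of the marrow, was 4.01 FPKM in Hdac3 KO cells against 10.1 FPKM in WT cells (-1.33 ± 0.29). All of these had q = 0.0016 in the authors' deposited table. Pilra, an inhibitory receptor of myeloid cells, was 2.57 FPKM in Hdac3 KO cells against 5.67 FPKM in WT cells, with q = 0.0361 in the authors' deposited table. It shares its locus with Zcwpw1, whose exons overlap its own on the other strand, and its call was lost at a q threshold of 0.01. In Pilra, 20.8% of the 50-base stretches also occur in transcripts of other genes. Itgam, the CD11b integrin subunit carried by neutrophils, monocytes and other leukocytes, was the receptor gene not called, at 17.1 FPKM in Hdac3 KO cells against 23.7 FPKM in WT cells (-0.47 ± 0.28, q = 0.137 in the authors' deposited table). GENCODE places a further gene model, Gm49368, over its exons on the same strand. Of the 50-base stretches of Itgam, 66.3% also occur in that model, so its value is less certain.

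Among the remaining neutrophil products, 4 of 6 were lower in Hdac3 KO cells. Anxa1, annexin A1, a ligand of the formyl peptide receptors, was 77.5 FPKM in Hdac3 KO cells against 161 FPKM in WT cells (-1.06 ± 0.23). Padi4, the enzyme that citrullinates histones, was 4.39 FPKM in Hdac3 KO cells against 8.48 FPKM in WT cells (-0.95 ± 0.35). Its call was lost with a 2-fold minimum and with the statistic read as a normal deviate, where the adjusted p was 0.122. Ceacam10, of the carcinoembryonic antigen family, had the lowest log2 fold change of the 34 at -2.34 ± 0.50, but at only 0.737 FPKM in Hdac3 KO cells against 3.73 FPKM in WT cells. Asprv1, an aspartic protease known from skin, was 0.615 FPKM in Hdac3 KO cells against 2.38 FPKM in WT cells (-1.95 ± 0.54). These 4 had q = 0.0016 in the authors' deposited table. The calls of Ceacam10, Asprv1 and Mmp25 rest on levels under 1 FPKM in Hdac3 KO cells. Stfa2l1, of the stefin A family of cysteine protease inhibitors, was 2.08 FPKM in Hdac3 KO cells against 5.23 FPKM in WT cells. Its q was 0.164 in the authors' deposited table, although reading the deposited statistic as a normal deviate gave an adjusted p of 0.00597, and 24.6% of its 50-base stretches occur in related genes. Alox5ap, which presents arachidonic acid for leukotriene synthesis, was the abundant exception at 178 FPKM in Hdac3 KO cells and 164 FPKM in WT cells (0.12 ± 0.20). Its exons overlap Gm19719 on the other strand.

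**Figure D2:**
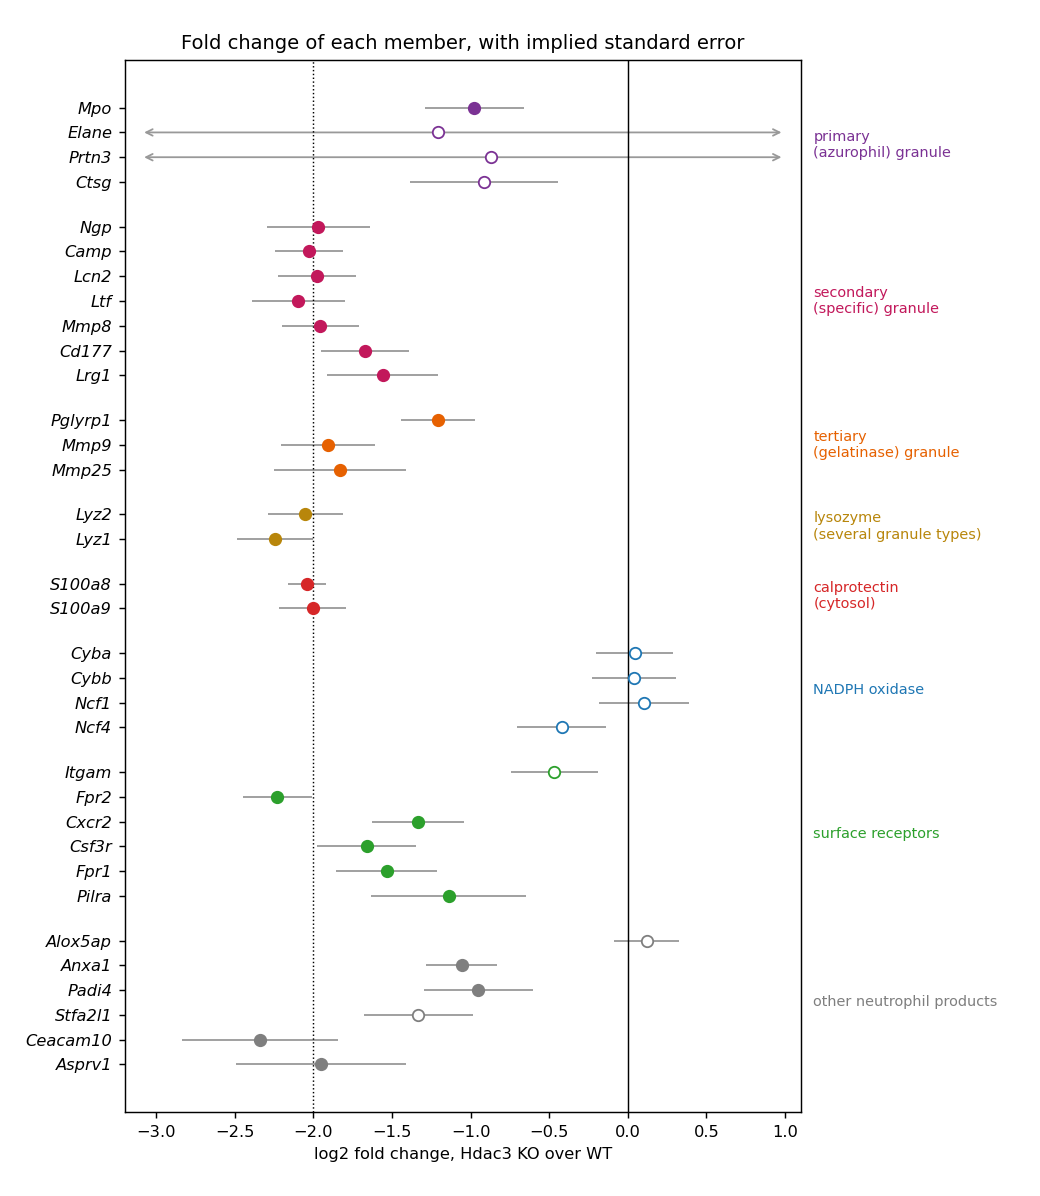
Log2 fold change of each gene (Hdac3 KO over WT) with a bar of 1 implied standard error on each side, coloured by class, filled where the authors' q was under 0.05 and open where it was not. Lysozyme, calprotectin and 5 of 7 secondary granule genes lie close to the dotted line that marks a 4-fold decrease, Cybb, Cyba and Ncf1 lie near 0 with Ncf4 at -0.42, and the arrows mark Elane and Prtn3, whose implied errors of 21.5 and 19.3 run past the axis.

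None of the 4 NADPH oxidase members was called by the authors' Cuffdiff q (1 lower at an unadjusted p under 0.05, 0 with the statistic as a normal deviate). Over all tested entries 6.95% were called, so the lack of a call does not set these genes apart. Cybb and Cyba encode the subunits of the membrane flavocytochrome. Cybb was 133 FPKM in Hdac3 KO cells and 129 FPKM in WT cells (0.04 ± 0.27), and Cyba was 163 FPKM in Hdac3 KO cells and 158 FPKM in WT cells (0.04 ± 0.25). The ratio of Cybb to Cyba was 0.816 in Hdac3 KO cells and 0.818 in WT cells. Ncf1, the cytosolic organiser subunit, was 98.8 FPKM in Hdac3 KO cells and 92.0 FPKM in WT cells (0.10 ± 0.28). Ncf4, a cytosolic regulatory subunit, was 24.1 FPKM in Hdac3 KO cells against 32.3 FPKM in WT cells, at -0.42 ± 0.28 and q = 0.232 in the authors' deposited table. The other 3 had q-values from 0.896 to 0.971 in the authors' deposited table. Secondary granule FPKM were 1.33 times oxidase FPKM in Hdac3 KO cells and 5.37 times in WT cells.

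The other components of the phagocyte oxidase were not called either, where 6.95% of all tested entries were called. Of 5 genes, 0 were lower and 0 higher by the authors' Cuffdiff q (0 and 0 at an unadjusted p under 0.05, and 0 and 0 with the statistic as a normal deviate), with a median log2 fold change of 0.09. The GTPase gene Rac2 was 368 FPKM in Hdac3 KO cells and 311 FPKM in WT cells, and Rac1 was 177 FPKM in Hdac3 KO cells and 197 FPKM in WT cells. Rap1a, another small GTPase, was 193 FPKM in Hdac3 KO cells and 198 FPKM in WT cells. Cybc1, a chaperone of the flavocytochrome entered as BC017643, was 82.5 FPKM in Hdac3 KO cells and 67.0 FPKM in WT cells. In which cells of the gate these transcripts were made was not tested.

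Other neutrophil genes were mostly lower in Hdac3 KO cells as well. Of 24 tested genes on a further neutrophil list, 17 were lower, 0 were higher by the authors' Cuffdiff q (1 at an unadjusted p under 0.05, 0 with the statistic as a normal deviate), and the median log2 fold change was -1.82. The largest called differences were those of Il1b, the cytokine interleukin 1 beta, at -2.47 ± 0.50, Chi3l3, a chitinase-like protein, at -2.21 ± 0.22, Ltb4r1, the leukotriene B4 receptor, at -2.11 ± 0.36, and Trem3 at -2.08 ± 0.37. Of 7 transcription factors of the neutrophil lineage, 3 were lower, against the same 4.14% of all tested entries. Cebpe, the C/EBP factor of secondary granule formation, was 1.42 FPKM in Hdac3 KO cells against 5.78 FPKM in WT cells (-2.03 ± 0.52). Cebpb was 3.91 FPKM in Hdac3 KO cells against 8.94 FPKM in WT cells (-1.19 ± 0.35), and Gfi1, a repressor needed for neutrophil maturation, was 5.98 FPKM in Hdac3 KO cells against 9.38 FPKM in WT cells (-0.65 ± 0.32). The call on Gfi1, with q = 0.0457 in the authors' deposited table, was lost under 4 of 6 alternatives (q under 0.01, a 2-fold minimum, a minimum of 1 FPKM and the statistic as a normal deviate), while Cebpe and Cebpb kept theirs under all 6. Spi1, the gene of PU.1, is entered as Sfpi1 and was 38.4 FPKM in Hdac3 KO cells and 46.1 FPKM in WT cells. Cebpa, the C/EBP factor of early granulocyte progenitors, was 4.33 FPKM in Hdac3 KO cells and 4.18 FPKM in WT cells. Neither Spi1 nor Cebpa was called.

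**Figure D3:**
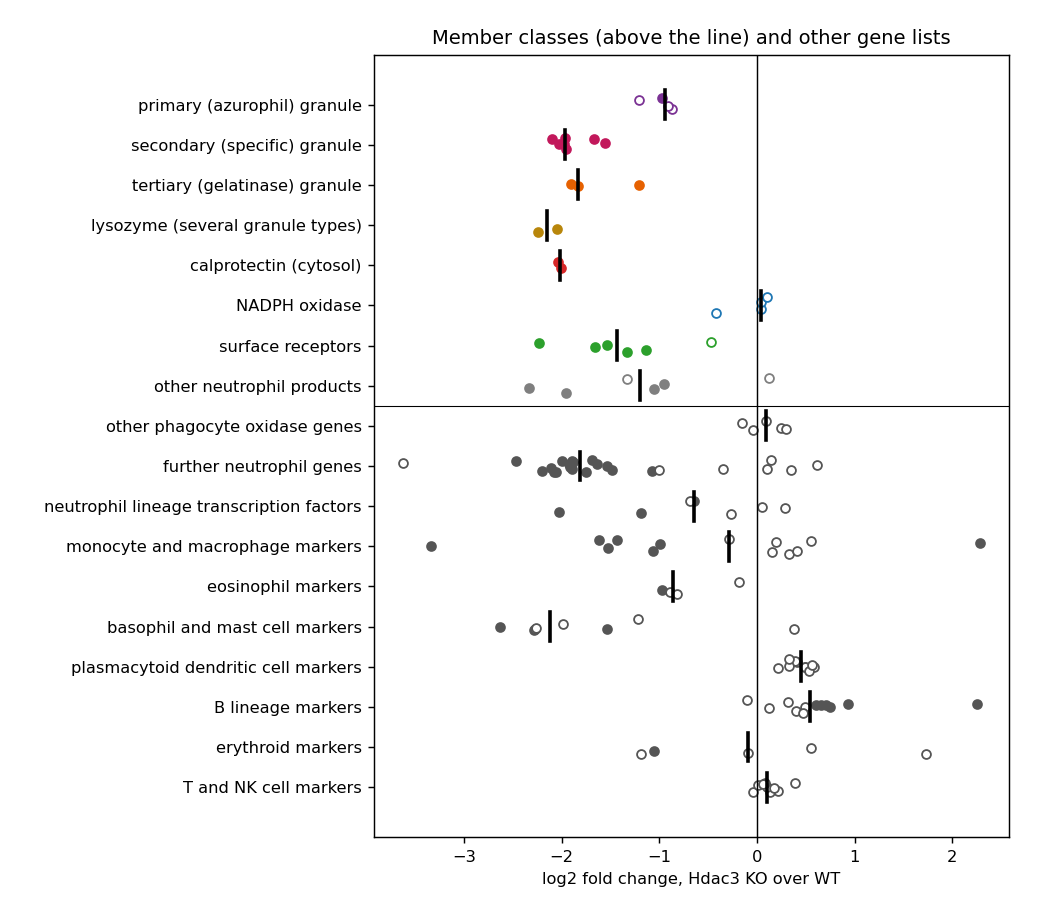
Log2 fold change (Hdac3 KO over WT) of each tested gene in the 8 classes of the 34 genes, above the line, and in the other gene lists, below it, with black bars for medians, filled points where the authors' q was under 0.05 and open points where it was not. The further neutrophil genes have a median of -1.82 and the other oxidase genes 0.09.

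Markers of other cells that the gate could hold did not share a direction. Monocyte and macrophage markers were split, with 6 of 13 tested genes lower and 1 higher, at a median log2 fold change of -0.29. Over all tested entries 4.14% were lower and 2.81% higher. Emr4, a surface receptor of macrophages, was 0.324 FPKM in Hdac3 KO cells against 3.29 FPKM in WT cells. Csf1r, the receptor of macrophage colony-stimulating factor, was 1.79 FPKM in Hdac3 KO cells against 5.16 FPKM in WT cells, while Cd14 was 2.94 FPKM in Hdac3 KO cells against 0.602 FPKM in WT cells. The summed level of that list was 1258 FPKM in Hdac3 KO cells and 1089 FPKM in WT cells, led by Ly6c2 and Ctss. Markers of plasmacytoid dendritic cells summed to 2978 FPKM in Hdac3 KO cells and 2286 FPKM in WT cells, led by Irf8 and Bst2, and 0 of 10 were called by the authors' Cuffdiff q (4 higher at an unadjusted p under 0.05, 0 with the statistic as a normal deviate). The share called over all tested entries was 6.95%. B-lineage markers, which define the labelled population, summed to 4651 FPKM in Hdac3 KO cells and 3214 FPKM in WT cells. Of these, 6 of 12 were higher, against 2.81% of all tested entries, among them Rag1 at 2.25 ± 0.33 and Dntt at 0.93 ± 0.35. No marker on these 3 lists was at 0. The part of these populations in the values of the 34 genes was not tested.

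The genes beside the 34 in the genome did not share their direction. Within 100 kb of the deposited position of a member lay 108 tested genes that are neither members nor in the locus of Elane and Prtn3. For those 2 members the deposited position is the whole 672 kb locus, so genes near its ends can lie farther from either gene. Of these, 4 were lower and 3 higher, or 3.70% lower against 4.14% of all tested entries, with a median log2 fold change of -0.01. The lower ones were Pilrb1 and Pilrb2, relatives of Pilra at -2.26 and -2.09, Mcpt8, a basophil protease gene near Ctsg, at -2.64, and Bzrap1, near Mpo, at -0.92. The higher ones were Rtp3 near Ltf at 1.27, Scap near Ngp at 0.99 and Cd40 near Mmp9 at 1.04. They were singled out after their values were seen.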

How the data were processed

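Trizol RNA was polyA-enriched and made into libraries with an Illumina TruSeq kit, per the labels' protocols, which do not state whether strand was kept. The submitters' processing notes name Trimmomatic 0.32, TopHat2 2.0.11, Cuffdiff 2.1.1 and the mm10 build. The table deposited by the authors gives 1 FPKM value per genotype, per the file headers, and beside it Cuffdiff's test statistic (a score), p-value and q-value. The smallest p-value, 5e-05, is shared by 23 members, so these cannot be ranked by it. The p-values come from the authors' own model, in which each genotype has 2 libraries of 2 pooled mice.

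Fold changes were computed from FPKM without a pseudocount. Deposited start positions were shifted by 1 base to count from 1. Older symbols were matched through RefSeq synonyms. For Ceacam10, with 2 promoters, the first was searched. Exon overlaps and 50-base stretches came from GENCODE M21, and the read length is not stated. The members, classes and lists were chosen with earlier results of these data known, so counts on them are descriptions. Named were all members, Hdac3, the oxidase list (1 of its genes is not reported here), and up to 4 called genes of each other list by fold (or the 2 most abundant where none was called), and others were chosen after their values were seen. Alternatives concerned the q threshold, minimum fold and level, the test, the pseudocount, the centring and the class assignment. Tools were matplotlib 3.10.9, scipy 1.17.1, numpy 2.4.6, pandas 2.3.3 and Python 3.11.15.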

Additional observations from a re-analysis of the deposited data

How the results depend on the processing

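No paired analysis was possible because the deposited table carries 1 value per genotype and no replicate numbers, and for the same reason no library could be left out in turn. The number of lower members stayed between 21 and 24 under 6 alternatives, and all 34 members kept the sign of their fold change with a pseudocount of 1 FPKM and with centring on the median entry, which was 0.02. With a minimum of 1 FPKM in both genotypes Asprv1, Ceacam10 and Mmp25 left the test, and 2 of the remaining neutrophil products were then called in place of 4. Primary granule calls went to 0 with a 2-fold minimum and to 0 with the statistic read as a normal deviate, which lost Mpo, Padi4 and Pilra and gained Stfa2l1. A pseudocount of 1 FPKM moved medians on the log2 scale to -1.18 for tertiary granule genes, -1.16 for further neutrophil genes, -0.36 for eosinophil markers and -0.60 for basophil and mast cell markers. Without its most abundant member, the log2 ratio of summed levels was -1.90 for tertiary granule genes, -1.70 for surface receptors and -1.09 for the remaining neutrophil products, whose mean log2 fold change was -1.25. At a q threshold of 0.10, 1 further neutrophil gene, 2 monocyte and macrophage markers and 2 plasmacytoid dendritic cell markers were higher. With the 1 FPKM minimum 0 monocyte and macrophage markers were higher. Of eosinophil markers, 0 were lower at a q threshold of 0.01, with the 2-fold minimum, with the 1 FPKM minimum and with the normal deviate. Of B-lineage markers, 2 were higher at a q threshold of 0.01, 1 with the 2-fold minimum and 1 with the normal deviate. Beyond the alternatives' own thresholds, the cause was not tested. The unknown depth limits what the genes near 1 FPKM can show.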

Other observations

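Markers of granulocytes other than neutrophils also had entries, at low levels. Whether such cells were in the gate was not tested. Of 8 tested basophil and mast cell markers, 3 were lower in Hdac3 KO cells, against 4.14% of all tested entries, with a median log2 fold change of -2.12. Mcpt8, a basophil protease, was 1.45 FPKM in Hdac3 KO cells against 9.05 FPKM in WT cells (-2.64 ± 0.41), and Prss34, another basophil protease, was 1.85 FPKM in Hdac3 KO cells against 9.03 FPKM in WT cells (-2.29 ± 0.40). Gata2, a transcription factor of mast cells, basophils and progenitors, was 0.202 FPKM in Hdac3 KO cells against 0.587 FPKM in WT cells. Its log2 fold change was -1.54 ± 0.65, with q = 0.0312 in the authors' deposited table. Its call was lost at a q threshold of 0.01, with the 1 FPKM minimum and with the statistic as a normal deviate, which left 2. Cma1, on the same list, was not called, at 0.38 ± 0.47. Of 4 tested eosinophil markers, 1 was lower, against the same 4.14% of all tested entries. It was Il5ra, the interleukin 5 receptor, at 0.851 FPKM in Hdac3 KO cells against 1.67 FPKM in WT cells.

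Of 5 tested erythroid markers, 1 was lower, against 4.14% of all tested entries. The lower one was Car2, a carbonic anhydrase, at 26.3 FPKM in Hdac3 KO cells against 54.4 FPKM in WT cells (-1.05 ± 0.26). The list did not share its direction, with 3 negative and 2 positive log2 fold changes and a median of -0.09. Hbb-bs, entered as Beta-s, was 7.37 FPKM in Hdac3 KO cells and 5.01 FPKM in WT cells and was not called. None of 9 T and NK cell markers was called by the authors' Cuffdiff q (0 at an unadjusted p under 0.05, 0 with the statistic as a normal deviate), and the most abundant were Nkg7, at 185 FPKM in Hdac3 KO cells and 184 FPKM in WT cells, and Gzma, at 153 FPKM in Hdac3 KO cells and 147 FPKM in WT cells. The share called over all tested entries was 6.95%.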
